A study of Mus musculus with 2 samples.

Results

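Chemokines and chemokine receptors were followed in intestinal RNA of mice with a gut-specific loss of Gpcpd1, as labelled, and of wild-type mice. Their probes were picked by gene symbol, as every gene probe named for a CC, CXC or XC ligand or receptor, an atypical receptor, Cx3cl1, Cx3cr1 or Xcr1. That gave 57 genes with 76 of the 41174 different probes on the array: 35 ligands with 45 probes and 22 receptors with 31 probes. One RNA came from male C57BL/6 mice labelled Gde5 gutKO, with a gut-specific deficiency of Gpcpd1 (GDE5, a phosphodiesterase that splits glycerophosphocholine), and the other from wild-type males. Both were 20 weeks old and on a normal diet. The series text gives the number of mice as 5, and the sources used here do not say whether RNA was pooled, whether the arrays share extracts, or which Cre driver was used. Both RNAs were hybridised together on each of 2 dual-colour Agilent arrays on 1 slide, and the dyes were swapped: knockout RNA was in the Cy3 channel of replicate 1 and in the Cy5 channel of replicate 2.

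Chemokines are small secreted proteins that direct the movement of leukocytes by binding receptors that signal through inhibitory G proteins. In the gut, CCL25 from epithelial cells draws T cells and plasma cells that carry CCR9. CXCL13, CCL19 and CCL21 arrange B and T cells in Peyer's patches and other lymphoid follicles through CXCR5 and CCR7. CCL20 and CCR6 bring dendritic cells and B cells to the follicle-associated epithelium, and the interferon-induced CXCL9 and CXCL10 attract CXCR3-bearing T and NK cells. Atypical receptors bind chemokines without G-protein signalling and take them up.

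Values are log2 ratios, RNA labelled knockout over RNA labelled wild type, for replicates 1 and 2 in that order or as mean ± SD of the 2 arrays (n = 2), and log2 intensities after normalization. The array number limits the precision of every value, and since separate extracts are not stated, p-values cover only how 2 hybridisations differ, possibly for technical reasons. Where values are said not to overlap, 2 values are compared with 2 for a named gene. The share of all genes without overlap is not given, so the wording is description only. The targeted gene did not check the labels, as Gpcpd1 was no lower where the knockout is labelled: its brightest probe had log2 ratios of 0.28 and 1.08, and 3 of its 4 probes were higher on both arrays. The deleted part of the gene is not given, so a probe outside it checks nothing, and all directions given here depend on the dye labels being right. Over all 18988 tested genes the ratios of the 2 arrays correlated negatively after turning for the swap (Pearson r = -0.38 across genes, which are not independent replicates), and less so with the scanner software's ratios (r = -0.02). By rank the correlation was -0.42, and -0.17 with the scanner software's ratios (Spearman). Dye and array cannot be told apart with 1 array of each orientation. The labelled tissue showed in its markers, as all 14 small intestinal epithelial genes listed, among them Vil1, Fabp2 and Sis, were well above background in both RNAs on both arrays.

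Chemokine and receptor genes that went the same way on both arrays were mostly higher in the RNA labelled knockout. Of 45 genes with a probe well above background, 20 were higher on both arrays, 5 were lower on both and 20 went opposite ways. The share higher on both arrays was 44.4%, against 16.9% of all genes tested, and the share lower on both was 11.1%, against 18.1%; opposite ways went 44.4%, against 64.9% of all genes. Higher on both were the follicle chemokines Ccl19 and Cxcl13, the CXCR3 ligands Cxcl9 and Cxcl10, and 7 of 8 receptors of lymphocytes, while the eosinophil chemokine Ccl24 and the mucosal chemokine Ccl28 were among those lower on both. The median log2 ratio was 0.12 over the 45 genes and -0.01 over all genes tested. In bulk tissue, fewer cells of a type and less RNA per cell cannot be told apart.

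None of these genes passed limma's test with Benjamini-Hochberg adjustment over all genes (0 of 45, and 0% of all genes tested). Unadjusted p-values under 0.05 were found for Ccl19, Ccr6, Ccl3 and Cxcl9, which is 4 of 45 genes, all higher, against 0.969% of all genes higher at that p and 1.24% in either direction. With the scanner software's own ratios 10 of the 45 had an unadjusted p under 0.05, against 5.02% of all genes, and again none passed adjustment, while 39 of all genes did (0.205%). At a 1.5-fold difference in the same direction on both arrays, 0 of 45 genes qualified, where 0.158% of all genes were that much higher and 0.0579% that much lower. The split of 20 higher and 5 lower became 13 higher and 6 lower when arrays were centred on their median instead of loess, where 11.4% of all genes were higher and 17.1% lower. It became 14 higher and 10 lower when spots marked as outliers stayed in the background fit, where 13.2% of all genes were higher and 26.6% lower. All 45 genes have a probe above background in both RNAs on both arrays, so the filter on dim probes did not select them by their difference.

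**Figure D1:**
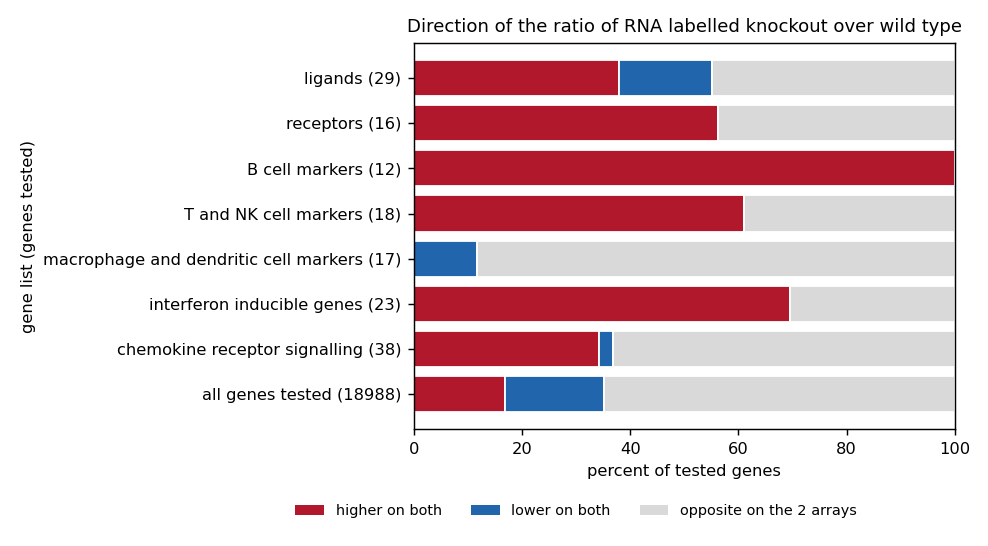
Percent of tested genes that were higher on both arrays (red), lower on both (blue) or opposite on the 2 arrays (grey) in RNA labelled knockout over RNA labelled wild type, with the number of genes tested in parentheses. Ligands and receptors hold a larger red share than all genes tested (16.9%), and the receptors have no gene lower on both arrays.

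The 12 genes outside the filter were the ligands Ccl1, Ccl22, Cxcl2, Cxcl3, Cxcl15 and Cxcl17 and the receptors Ccr1, Ccr4, Ccr8, Ccr10, Cxcr1 and Cxcr2. Among them are the neutrophil attractants Cxcl2 and Cxcl3 and both neutrophil receptors, Cxcr1 and Cxcr2, which were not well above background in either RNA on either array. Ccr1 and Ccr10, the receptor of CCL28 on plasma cells, were above background only in the Cy3 channel of each array, which is the RNA labelled knockout in replicate 1 and the RNA labelled wild type in replicate 2. No ratio is drawn from these 12 genes.

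Of the lymphoid tissue chemokines 3 of 4 were higher on both arrays in the RNA labelled knockout, with a group median of 0.43. Ccl19, which guides CCR7-bearing T cells and dendritic cells, had log2 intensities of 10.69 and 10.74 in the RNA labelled knockout, against 9.84 and 10.16 in the RNA labelled wild type. Both values of the RNA labelled knockout were above both of the RNA labelled wild type. The log2 ratio was 0.71 ± 0.19, a 1.64-fold difference (probe on chromosome 4, 42250432 to 42250491, mm9), with limma's unadjusted p = 0.00947 and an adjusted p of 1. A second, nearby probe of Ccl19 was at 0.76 and 0.51. The log2 intensities of Cxcl13, the B-cell attractant of follicles, were 10.10 and 10.25 in the RNA labelled knockout, against 9.82 and 9.67 in the RNA labelled wild type. The ranges did not overlap, and the log2 ratio was 0.43 ± 0.21 (chromosome 5, 96389861 to 96389920, mm9). Ccl21a, the other CCR7 ligand, had 11.71 and 11.62 in the RNA labelled knockout, against 10.91 and 11.55 in the RNA labelled wild type. The values did not overlap, but nearly all of its difference came from replicate 1 (0.79, against 0.06 in replicate 2). Ccl19 and Ccl21a have near-identical copies in the same mouse gene cluster, so that their probes may read several genes and the values are uncertain. Cxcl12, made by stromal cells and bound by CXCR4 and ACKR3, went opposite ways at its brighter probe (-0.27 and 0.26), while a probe for another transcript end was at 0.76 and 0.11.

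The promoters of these lymphoid chemokines and of the CXCR3 ligands that stood higher on both arrays are shown because these genes had the same direction; each is the 250 bases before the gene's start, from RefSeq on GRCm38.p6, 5′ to 3′ on the gene's own strand. Capitals mark matches on either strand to the interferon-stimulated response element (GAAA, any 2 bases, GAAA), to the gamma-activated site TTCNNNGAA, to the NF-kB motif or to the TATA-like run ATAAATA, which was picked after the sequences had been read; neighbouring matches overlap in Cxcl13 and Cxcl10. They lie on chr4:42756366-42756615 (minus strand) for Ccl19, chr4:42773992-42774241 (minus) for Ccl21a, chr5:95956689-95956938 (plus) for Cxcl13, chr5:92328080-92328329 (minus) for Cxcl9 and chr5:92348890-92349139 (minus) for Cxcl10.
Ccl19: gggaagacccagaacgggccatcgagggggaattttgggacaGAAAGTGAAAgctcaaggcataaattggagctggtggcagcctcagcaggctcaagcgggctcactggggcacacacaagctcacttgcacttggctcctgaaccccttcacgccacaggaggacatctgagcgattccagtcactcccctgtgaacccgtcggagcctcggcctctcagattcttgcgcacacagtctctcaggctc
Ccl21a: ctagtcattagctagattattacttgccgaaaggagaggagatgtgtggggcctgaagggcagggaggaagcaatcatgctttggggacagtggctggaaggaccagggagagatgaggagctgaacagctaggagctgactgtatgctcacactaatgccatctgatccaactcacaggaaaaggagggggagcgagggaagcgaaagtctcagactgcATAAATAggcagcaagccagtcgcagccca
Cxcl13: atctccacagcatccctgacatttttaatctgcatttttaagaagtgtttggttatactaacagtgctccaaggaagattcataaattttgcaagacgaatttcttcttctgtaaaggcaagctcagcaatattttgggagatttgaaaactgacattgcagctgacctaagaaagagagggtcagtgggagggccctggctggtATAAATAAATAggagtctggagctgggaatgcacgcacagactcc
Cxcl9: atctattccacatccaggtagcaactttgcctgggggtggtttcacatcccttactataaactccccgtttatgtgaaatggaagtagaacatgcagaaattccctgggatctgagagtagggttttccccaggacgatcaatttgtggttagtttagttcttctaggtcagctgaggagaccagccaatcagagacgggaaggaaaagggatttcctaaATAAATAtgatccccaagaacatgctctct
Cxcl10: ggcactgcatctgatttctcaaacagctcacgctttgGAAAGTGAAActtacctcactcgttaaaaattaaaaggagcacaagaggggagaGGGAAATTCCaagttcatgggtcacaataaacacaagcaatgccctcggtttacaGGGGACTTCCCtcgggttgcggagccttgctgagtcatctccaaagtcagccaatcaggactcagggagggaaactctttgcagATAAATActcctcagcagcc

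In these windows the interferon-stimulated response element began 208 bases before the start in Ccl19 and 213 bases before it in Cxcl10, and it was found in 2.98% of 32851 RefSeq promoters of the same length. Matches to the NF-kB motif stood in Cxcl10 only among the 5, at 159, 104 and 103 bases before the start, and in 7.25% of all promoters. The TATA-like run lay 30 bases before the start in both Ccl21a and Cxcl9, 20 before it in Cxcl10 and 45 and 41 before it in Cxcl13, and was held by 5.17% of all promoters. Gamma-activated sites had no match in the 5 windows and were in 7.02% of all promoters. Over the 43 of 57 genes with a RefSeq promoter, 3 held the response element, 3 the gamma-activated site, 11 the NF-kB motif and 4 the TATA-like run. The 11 include the neutrophil chemokine Cxcl1, which was lower on both arrays, the CCR6 ligand Ccl20, which went opposite ways, Cxcl2 and Cxcl3, which were outside the filter, and, besides Cxcl10, Ccr6 and Ccl9, which were higher on both. A match is a run of letters, not a measured binding site.

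**Figure D2:**
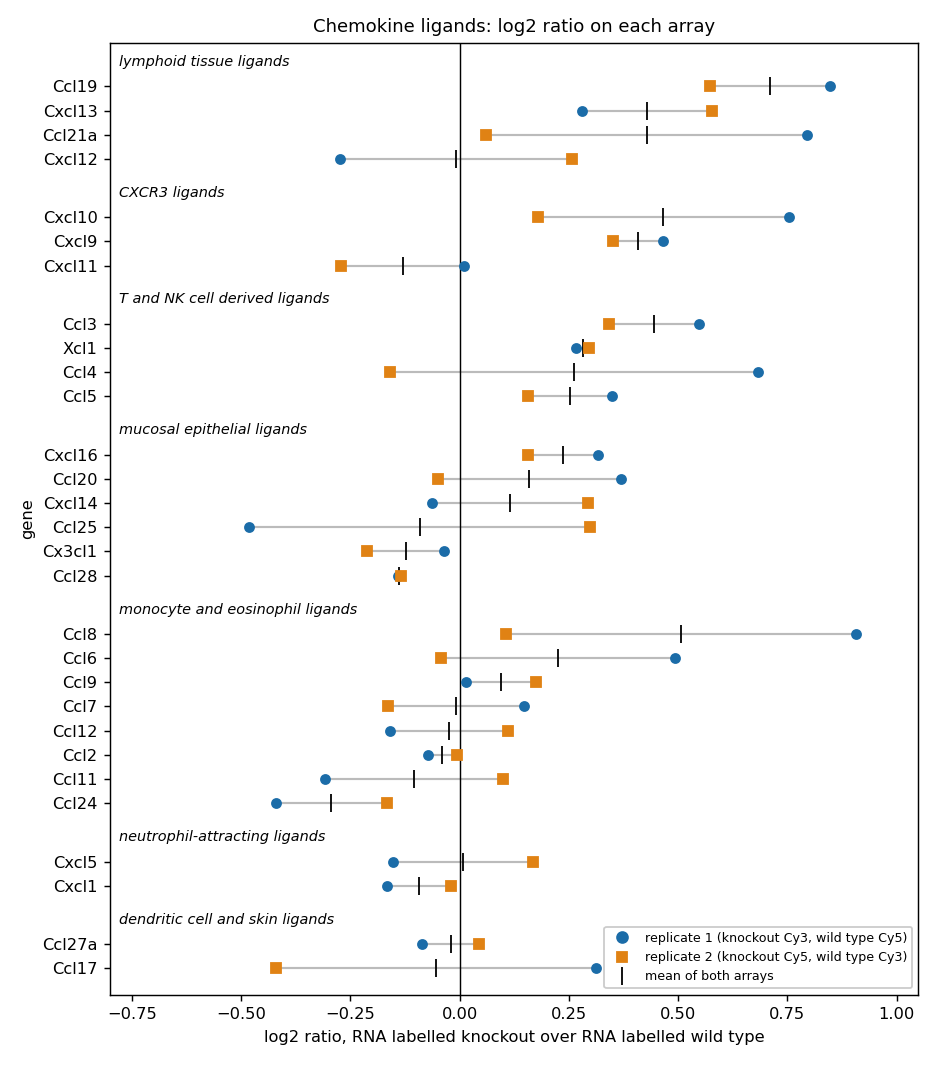
Log2 ratio of RNA labelled knockout over RNA labelled wild type for the 29 tested ligand genes, by role; circles are replicate 1, squares replicate 2 and black ticks the mean of both arrays. Ccl19 has ratios of 0.85 and 0.57, and genes such as Ccl4 and Ccl25 lie on opposite sides of 0.

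Of the 3 ligands of CXCR3, which interferon induces and which attract effector T cells and NK cells, Cxcl9 and Cxcl10 were higher on both arrays and Cxcl11 was not. Cxcl9 had log2 intensities of 10.34 and 10.08 in the RNA labelled knockout, against 9.87 and 9.73 in the RNA labelled wild type. These did not overlap, and the log2 ratio was 0.41 ± 0.08, 1.33-fold (chromosome 5, 92752191 to 92752250, mm9; limma's unadjusted p = 0.0423). For Cxcl10 the log2 intensities were 9.47 and 9.14 in the RNA labelled knockout, against 8.72 and 8.96 in the RNA labelled wild type, a log2 ratio of 0.47 ± 0.41 (chromosome 5, 92775781 to 92775840, mm9). Replicate 1 stood further apart than replicate 2, 0.75 against 0.18, whereas the scanner software's ratios put replicate 2 further apart, 0.39 and 0.71. Cxcl11 was at 0.01 and -0.27; in C57BL/6 mice this gene is known to carry a frameshift and to give no functional protein.

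Among chemokines that activated T and NK cells make, Ccl3, Ccl5 and Xcl1 were higher on both arrays and Ccl4 was not, with a group median of 0.27. Ccl3, a ligand of CCR1, had log2 intensities of 7.46 and 7.57 in the RNA labelled knockout, against 6.91 and 7.23 in the RNA labelled wild type. Both values of the RNA labelled knockout were above both of the RNA labelled wild type, at a log2 ratio of 0.44 ± 0.15, 1.36-fold (chromosome 11, 83461358 to 83461417, mm9; limma's unadjusted p = 0.0377). Xcl1, which attracts XCR1-bearing dendritic cells, had 7.77 and 7.77 in the RNA labelled knockout, against 7.51 and 7.48 in the RNA labelled wild type. The values did not overlap, and its ratios of 0.27 and 0.30 were nearly equal. Ccl5, abundant in intraepithelial lymphocytes, had 13.50 and 13.31 in the RNA labelled knockout, against 13.15 and 13.15 in the RNA labelled wild type. The groups did not overlap, and its second probe was also higher on both arrays, at 0.48 and 0.15. Ccl4 split by array, at 0.68 and -0.16.

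**Figure D3:**
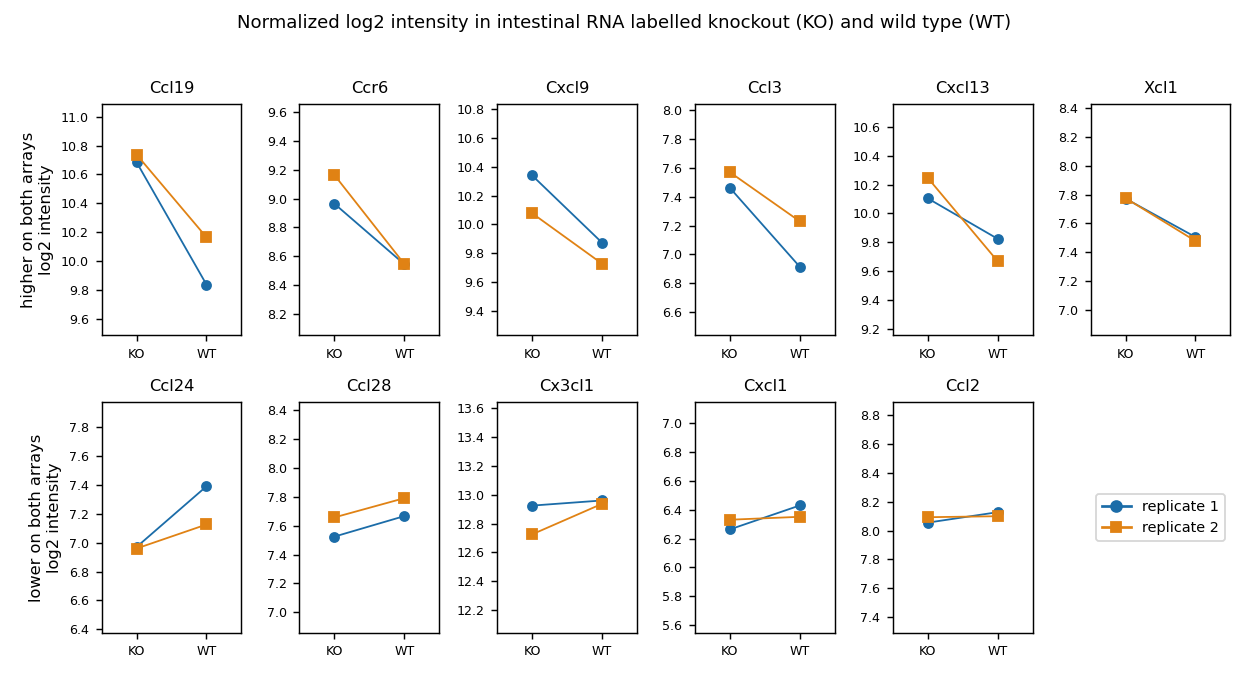
Normalized log2 intensity of the 6 genes higher on both arrays with the largest smaller ratio (top row) and of the 5 genes lower on both (bottom row), in RNA labelled knockout (KO, left) and RNA labelled wild type (WT, right); lines join the 2 RNAs of 1 array, and all panels span the same number of log2 units. In the top row the left point is the higher one on both arrays, while Cxcl1 and Ccl2 are almost level on replicate 2.

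Chemokines of the mucosal epithelium had no common direction, with 1 of 6 genes higher on both arrays, 2 lower and 3 opposite; the group median of 0.01 changed sign with normexp offset 0, median centring and other settings. Ccl25, the thymus and small-intestine chemokine that recruits CCR9-bearing lymphocytes, had log2 intensities of 16.16 and 16.47 in the RNA labelled knockout, against 16.64 and 16.17 in the RNA labelled wild type. All 3 of its probes were lower in replicate 1 and higher in replicate 2, but with the scanner software's ratios only the brightest was, and the other 2 were lower on both arrays (-0.03 and -0.05, and -0.24 and -0.05). Ccl28, which attracts IgA plasma cells through CCR10, had 7.52 and 7.66 in the RNA labelled knockout, against 7.67 and 7.79 in the RNA labelled wild type. Its ratios of -0.14 and -0.13 were nearly equal, and the groups did not overlap, although 7.66 and 7.67 nearly met. Cx3cl1, the membrane-bound ligand of CX3CR1, had 12.92 and 12.73 in the RNA labelled knockout, against 12.96 and 12.94 in the RNA labelled wild type. The values did not overlap at this brighter probe, although 12.92 and 12.94 nearly met, and the other probe had ratios of -0.08 and 0.00. Ccl20, the CCR6 ligand of the follicle-associated epithelium, was at 0.37 and -0.05, and Cxcl14, a chemokine of epithelia, at -0.06 and 0.29.

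The probes of Cxcl16, the ligand of CXCR6, disagreed in sign while each agreed between arrays. One probe (chromosome 11, 70267780 to 70267839, mm9) had log2 intensities of 9.81 and 9.97 in the RNA labelled knockout, against 9.49 and 9.82 in the RNA labelled wild type, with ratios of 0.32 and 0.16. The other, whose design coordinates span 70269521 to 70272262 on the same chromosome, had ratios of -0.17 and -0.15. No single direction can be given for Cxcl16. Over the 13 genes with several tested probes, all probes gave the same class (higher on both, lower on both or opposite) in 10, and means of the same sign in 9. Genes whose probes were higher on both arrays throughout were Ccl19, Ccl5, Ccr2 and Cxcr4, and both probes of Ccl24 were lower on both.

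Chemokines for monocytes and eosinophils showed 2 of 8 genes higher on both arrays, 2 lower and 4 opposite, at a group median of -0.02 that changed sign with the scanner software's ratios. Ccl24, eotaxin-2, a ligand of CCR3 on eosinophils, had log2 intensities of 6.97 and 6.96 in the RNA labelled knockout, against 7.39 and 7.13 in the RNA labelled wild type. Both values of the RNA labelled knockout were below both of the RNA labelled wild type, with a log2 ratio of -0.29 ± 0.18 (chromosome 5, 136046485 to 136046544, mm9) and an unadjusted limma p of 0.122. Ccl11, eotaxin-1, for the same receptor, was at -0.31 and 0.10. Ccl8, a monocyte chemokine, had 9.46 and 9.01 in the RNA labelled knockout, against 8.55 and 8.91 in the RNA labelled wild type. That is the widest gap of any ligand on 1 array, 0.91 in replicate 1, beside 0.10 in replicate 2. Ccl6 was at 0.49 and -0.04, and Ccl9 at 0.02 and 0.17. Ccl2, the main CCR2 ligand, was printed 10 times on each array. Its log2 intensities averaged 8.06 and 8.09 in the RNA labelled knockout, against 8.13 and 8.10 in the RNA labelled wild type. Single spots ranged from -0.30 to 0.38 in replicate 1, with 3 of 10 above 0, and from -0.43 to 0.22 in replicate 2, with 6 of 10 above 0. The means over spots were -0.07 ± 0.07 and -0.01 ± 0.06 (SE of 10 spots on 1 array), so both lay within 1 SE of 0. The SD of single spots was 0.24 and 0.20. Over the 245 probes printed 10 times, the median spot SD was 0.183 in replicate 1 and 0.121 in replicate 2.

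Of the neutrophil attractants, 2 of 5 were tested. Cxcl1 had log2 intensities of 6.26 and 6.33 in the RNA labelled knockout, against 6.43 and 6.35 in the RNA labelled wild type, and Cxcl5 had 6.69 and 6.84 in the RNA labelled knockout, against 6.85 and 6.67 in the RNA labelled wild type. Cxcl1 was lower on both arrays, with ratios of -0.17 and -0.02, and Cxcl5 split by array. The dendritic cell and skin chemokines Ccl17, a CCR4 ligand, and Ccl27a, a CCR10 ligand, split by array too, at 0.31 and -0.42 and at -0.09 and 0.04.

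Of the receptors, 9 of 16 were higher on both arrays, 0 lower and 7 opposite, beside 11 higher, 5 lower and 13 opposite of 29 ligands; the difference between the groups was not tested. The median log2 ratio was 0.15 for receptors and 0.09 for ligands. Among receptors of lymphocytes 7 of 8 were higher on both arrays (Ccr6, Ccr7, Ccr9, Cxcr3, Cxcr4, Cxcr5 and Cxcr6), with a median of 0.25. Ccr6, the receptor of CCL20 on B cells and dendritic cells, had log2 intensities of 8.96 and 9.16 in the RNA labelled knockout, against 8.55 and 8.55 in the RNA labelled wild type. The groups stood apart by more than either spread, at a log2 ratio of 0.52 ± 0.14, 1.43-fold (chromosome 17, 8449719 to 8449778, mm9; limma's unadjusted p = 0.023). With marked outlier spots kept in the background fit its log2 ratio was 0.35.

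Cxcr5, the CXCL13 receptor of follicular B and T cells, had 9.22 and 8.76 in the RNA labelled knockout, against 8.37 and 8.63 in the RNA labelled wild type. For Cxcr3, the receptor of CXCL9 and CXCL10, the values were 8.91 and 8.65 in the RNA labelled knockout, against 8.16 and 8.62 in the RNA labelled wild type. In both genes the groups did not overlap, although 8.65 and 8.62 nearly met in Cxcr3. The ratio of replicate 1 (0.85 and 0.74) was far above that of replicate 2 (0.13 and 0.04). Ccr7, which binds CCL19 and CCL21, had 6.97 and 6.82 in the RNA labelled knockout, against 6.81 and 6.66 in the RNA labelled wild type. Its ratios were close, at 0.16 and 0.17. Ccr9, the CCL25 receptor that homes lymphocytes to the small intestine, had 8.54 and 8.62 in the RNA labelled knockout, against 8.30 and 8.47 in the RNA labelled wild type, again without overlap.

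Cxcr4, the receptor of CXCL12, had 6.91 and 7.11 in the RNA labelled knockout, against 6.79 and 6.63 in the RNA labelled wild type. The log2 ratio of 0.30 ± 0.25 became 0.59 with the scanner software's ratios, and the second probe was higher by only 0.12 and 0.01. Cxcr6, the CXCL16 receptor, was at 0.02 and 0.29.

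**Figure D4:**
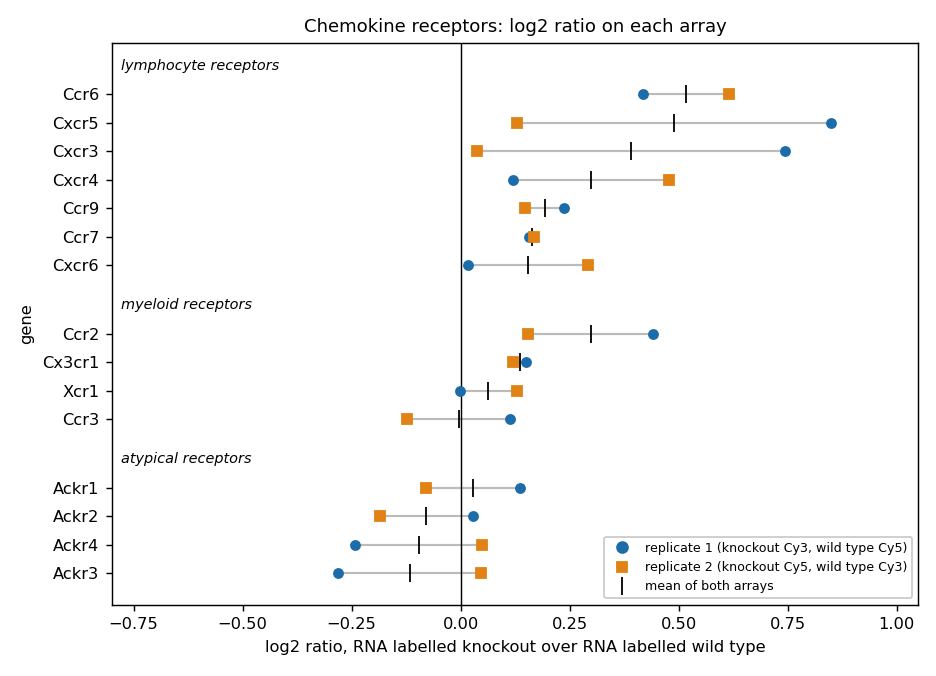
Log2 ratio of RNA labelled knockout over RNA labelled wild type for tested receptor genes named in the text, by role; circles are replicate 1, squares replicate 2 and black ticks the mean of both arrays. The lymphocyte receptors drawn lie right of 0 on both arrays, and all 4 atypical receptors straddle 0.

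Receptors of myeloid cells were divided, with Ccr2 and Cx3cr1 higher on both arrays and Ccr3 and Xcr1 opposite. Ccr2, which lets monocytes leave the bone marrow, had log2 intensities of 7.63 and 7.77 in the RNA labelled knockout, against 7.19 and 7.62 in the RNA labelled wild type. Cx3cr1, carried by intestinal macrophages, had 8.10 and 8.03 in the RNA labelled knockout, against 7.95 and 7.91 in the RNA labelled wild type. Neither group pair overlapped, with ratios of 0.30 ± 0.20 and 0.14 ± 0.02, although 7.63 and 7.62 nearly met in Ccr2. Ccr3, the eotaxin receptor, was at 0.11 and -0.12, and Xcr1 at 0.00 and 0.13. All 4 atypical receptors went opposite ways. Ackr1, found on venules and red cells, was at 0.14 and -0.08, and Ackr2, a scavenger of inflammatory CC chemokines, at 0.03 and -0.19. Ackr3, which scavenges CXCL12, was at -0.28 and 0.05, and Ackr4, which takes up CCL19, CCL21 and CCL25, at -0.24 and 0.05.

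Ligands and receptors of the same pair can be read side by side. Both sides were higher on both arrays for Cxcl13 and Cxcr5, for Ccl19 and Ccl21a with Ccr7, and for Cxcl9 and Cxcl10 with Cxcr3. Only the receptor was higher on both for Ccl25 with Ccr9, Ccl20 with Ccr6 and Cxcl12 with Cxcr4, where the ligand went opposite ways. For Cx3cl1 with Cx3cr1 the ligand was lower on both arrays and the receptor higher on both. Ccr2 was higher on both, beside a Ccl2 ratio within the error of its spots. Only the ligand was higher on both for Xcl1 with Xcr1. Whether the 2 sides of a pair differ was not tested.

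The scanner software's mean ratio had the same sign as that of normexp and loess in 41 of 45 genes. With the scanner software's ratios 25 of 45 genes were higher on both arrays, against 20.2% of all genes, 5 were lower, against 21.1%, and 15 opposite, against 58.7%. Ccl3 was then 1.5-fold or more higher on both arrays, at 0.67 and 0.61 (mean 0.64), while 0.548% of all genes were. Ccl4, Ccl12, Ccl20, Ccr3 and Xcr1 joined those higher on both, Ccl20 at 0.26 and 0.27. Among those lower on both, Cxcl11 and Ackr4 stood in place of Ccl2 and Cxcl1. Over the main values and 10 other settings, 9 genes were higher on both arrays throughout: Ccl19, Ccl3, Cxcl13, Cxcl9, Xcl1, Ccr2, Ccr6, Ccr7 and Cxcr4. Ccl24 and Ccl28 were lower on both throughout. The 10 settings are not separate checks, as the value table repeats the scanner software's ratios in rounded form. Settings that changed only the filter on dim probes moved 0 of the 45 ratios. Averaging tested probes changes nothing for a gene with 1 tested probe.

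**Figure D5:**
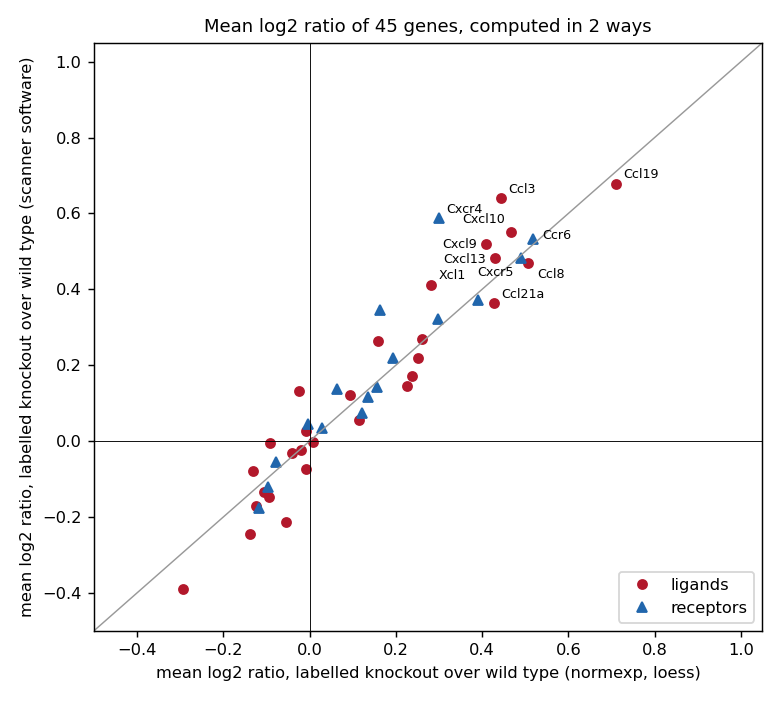
Mean log2 ratio of RNA labelled knockout over RNA labelled wild type for the 45 tested genes, from normexp and loess (horizontal) and from the scanner software (vertical); circles are ligands, triangles receptors and the grey line marks equal values. Ccl3 and Cxcr4 lie above the line (0.64 against 0.44 and 0.59 against 0.30), and Ccl19 is near it (0.68 against 0.71).

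Markers of the cells that carry or make these molecules were read on the same arrays. All 12 B-cell markers were higher on both arrays (median 0.36), among them the IgM receptor Fcmr (0.93 ± 0.43), the CD20 gene Ms4a1 (0.67 ± 0.12), the complement receptor Cr2 (0.40 ± 0.05) and Cd22 (0.36 ± 0.02). Their summed intensity, on the linear scale after normalization, was 9325 and 8733 in the RNA labelled knockout, against 6211 and 6401 in the RNA labelled wild type. Of 18 T and NK cell markers 11 were higher on both arrays, 0 lower and 7 opposite (median 0.17). Cd3g (0.52 ± 0.12) and Cd8b1 (0.26 ± 0.04) were higher on both, while Cd3e (-0.19 and 0.15) and Cd8a (0.43 and -0.24) were opposite. The count higher on both was 7 with median centring and 13 with the scanner software's ratios. The sums of all 18 were 12552 and 11404 in the RNA labelled knockout, against 10269 and 10587 in the RNA labelled wild type. Macrophage and dendritic cell markers gave 0 of 17 higher on both arrays and 2 lower (median -0.05), namely Mertk and Flt3, with sums of 100515 and 123723 in the RNA labelled knockout, against 146152 and 112206 in the RNA labelled wild type. Lyz2, a lysozyme gene, made up 88.8% to 92.3% of these sums, and without it they were 11262 and 10012 in the RNA labelled knockout, against 11292 and 11327 in the RNA labelled wild type. No marker of these 3 lists that the array holds fell below the filter on dim probes. Of the 12 B-cell markers, however, only 11 were above background in both RNAs on both arrays, and all 11 were higher on both. The remaining B-cell marker did not pass in both RNAs, so its direction is not independent of the filter. The part of cell number in the chemokine and receptor ratios was not tested.

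Interferon-inducible genes had the direction of Cxcl9 and Cxcl10, with 16 of 23 higher on both arrays, 0 lower and a median of 0.30. The GTPase gene Igtp was at 0.81 ± 0.04, Rsad2 at 0.77 ± 0.02, Oasl2 at 0.83 ± 0.17 and Oas2 at 0.74 ± 0.18. Their sums were 82090 and 81544 in the RNA labelled knockout, against 70131 and 64099 in the RNA labelled wild type, and their part in the CXCR3 ligands' ratios was not tested. Of 38 genes that carry or end the receptors' signal, 13 were higher on both arrays, 1 was lower and 24 were opposite (median 0.11). Rgs13, which shortens chemokine receptor signals in germinal centre B cells and mast cells, had the highest mean of the list, from ratios of 0.75 and 0.77. The guanine exchange factor Vav1 was at 0.20 and 0.26 and the actin regulator Was at 0.16 and 0.25. Other genes of the chemokine system that the symbol rule leaves out had 1 of 9 higher on both arrays, Cmtm7, and 1 lower, Cklf; the platelet chemokines Pf4 and Ppbp were opposite.

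By chromosome, the tested genes on chromosomes 11, 5, 4 and 9 did not all go the same way, though on chromosomes 4 and 9 none was lower on both arrays. On chromosome 1, 2 tested ligands gave 1 higher and 1 opposite, and 3 tested receptors gave 1 higher and 2 opposite. Of the 12 ligands on chromosome 11, which are CC ligands and Cxcl16, 11 were tested, of which 5 were higher on both arrays, 1 lower and 5 opposite. On chromosome 5, 10 ligands gave 7 tested genes, 3 of them higher, 2 lower and 2 opposite. On chromosome 4, Ccl19 and Ccl21a were higher and Ccl27a opposite. Of the 13 receptors on chromosome 9, 10 were tested, with 5 higher on both arrays and 5 opposite.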

How the data were processed

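The authors deposited scanner files whose intensity values are, per the file headers, a spot's mean brightness and its local background's median brightness, from Agilent Feature Extraction 11.5.1.1 (the submitters' processing notes name 9.5). The deposited log10 ratios are Cy5 over Cy3 of signals that the software had background-subtracted and dye-normalized, per the file headers; the series-wide table repeats them in rounded form. Deposited p-values of single spots come from an error model in the scanner software, per the file headers, and were not used. In R 4.3.3 with limma 3.58.1, spots marked as outliers were left out, background was corrected with normexp (offset 50), and loess was run within arrays with control spots at weight 0. Spots of a probe were averaged, and the sign was turned where knockout RNA was in Cy3. Tests took probes that were well above background on both arrays for at least 1 genotype (29047 probes). Symbols were updated through accessions (RefSeq, GRCm38.p6) and the brightest tested probe stood for a gene (18988 genes). limma's lmFit and eBayes tested the mean ratio against 0 at an adjusted p of 0.05; the procedure was tested on simulated data. Each array had 43379 gene spots, of which 133 in replicate 1 and 222 in replicate 2 were marked, and no spot was saturated. Coordinates of probes are those of the array design (mm9). Genes, lists and settings were chosen with earlier results of these data known. Values are given for the up to 6 genes higher and 6 lower on both arrays with the largest smaller ratio, for gut ligand and receptor pairs, and for up to 4 genes of each marker list; some genes are counted but not reported here by name.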

Additional observations from a re-analysis of the deposited data

How the results depend on the processing

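Counts of chemokine and receptor genes depended on the normalization. Higher on both arrays were 20 genes of 45 (16.9% of all genes), 13 with median centring (11.4% of all genes) and 29 to 31 on 1 array alone (48.3% to 50.5%). Lower on both were 5 (18.1% of all genes), 10 with marked outlier spots kept (26.6%) and 14 to 16 on 1 array alone (49.5% to 51.7%). At least 1.5-fold higher on both arrays were 0 (0.158% of all genes). It was 1 gene, Ccl19, with normexp offset 0 (59 of 18988 genes) or a surface over row and column removed (34 of 18988). It was 1 gene, Ccl3, with the scanner software's ratios (104 of 18988) or the value table (102 of 18988). At a 1.3-fold threshold it was 2 genes (Ccl19 and Ccr6), and on 1 array alone 1 to 7. For the 1.3-fold threshold and for 1 array alone the share of all genes is not given, so those counts are description only. limma called 0 of all genes, but 22 with offset 0, 39 with the software's ratios, 37 with the value table and 14 with the surface removed; none of them was a chemokine or receptor gene under any of these settings. The ligand median of 0.09 was 0.054 with median centring, 0.036 without the filter on dim probes and 0.10 to 0.15 on 1 array alone. The receptor median of 0.15 was 0.16 with offset 0 or no background correction, 0.070 with outlier spots kept, 0.13 with median centring, 0.14 with the software's ratios or value table, 0.12 with the surface removed, 0.077 without the filter and 0.13 on either array alone. The causes were not tested. Of 45 gene ratios, 0 to 5 turned sign under a single setting, none of them called. Counts of the marker lists stayed within 1.5 times in 150 of 200 values and moved in 50.

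The ratio within each array already pairs the genotypes. No paired analysis was possible beyond it, because the 2 arrays form a single group of ratios. A dye term would use the only residual degree of freedom, and both arrays share 1 slide, so neither was fitted. With 2 arrays the mean cancels a dye effect, but the spread keeps it.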

Other observations

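Other marker lists on the same arrays bear on which cells the RNA came from. Of 14 skeletal muscle genes, 10 were higher on both arrays and 2 lower, with a median log2 ratio of 0.40 that lay between 0.27 and 1.40 over the settings tried. Only 10 of the 14 were above background in both RNAs on both arrays, and of these 6 were higher on both arrays and 2 lower. The rest did not pass the filter in both RNAs, so their direction is not independent of the filter. Myh8 stood at 2.10 ± 0.02 and Myh4 at 2.18 ± 0.23, and the list's summed intensity was 5090 and 4721 in the RNA labelled knockout, against 2986 and 2910 in the RNA labelled wild type. The chemokine and receptor genes were measured in this same RNA, and the part of the muscle transcripts in their ratios was not tested.

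Granulocyte and mast cell markers gave 5 of 11 higher on both arrays and 2 lower (median 0.05). The eosinophil marker Siglecf was at 0.21 and 0.60 and the eosinophil granule gene Prg2 at 0.24 and 0.27, while the eotaxin Ccl24 was lower on both arrays; Elane and Epx were not well above background. Endothelial markers gave 2 of 11 higher and 4 lower (median 0.01). Among the 10 above background in both RNAs on both arrays, 2 were higher and 3 lower. The lymphatic receptor Flt4 was at -0.13 and -0.28 and the venule addressin Madcam1 at -0.04 and -0.12, while Glycam1 was higher, at 0.09 and 0.32. With the scanner software's ratios Flt4 (0.004 and -1.39) and Madcam1 (-0.07 and 0.13) went opposite ways. Epithelial markers gave 5 of 14 higher and 4 lower (median -0.01), led by the fatty acid binding protein Fabp2 at 0.95 and 0.45.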
